A study of Mus musculus with 6 samples.

Results

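Early neuron genes were followed through open chromatin peaks of neural stem cell (NSC) cultures at 2 states. The 8 genes were Tubb3, Dcx, Rbfox3, Map2, Stmn2, Elavl3, Elavl4 and Reln, taken by name, with earlier results of these data known. All peaks that touched a gene body or the 20 kb on each side of it were collected and merged across libraries wherever they overlapped, which left 113 regions of the 119719 merged regions on the assembled chromosomes. The window of Map2 held 40 regions, Rbfox3 23, Reln 16, Elavl4 10, Stmn2 and Elavl3 7 each, and Tubb3 and Dcx 5 each. Regions carry the gene name and a number in genome order, so Reln r10 follows Reln r9 along the chromosome.

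ATAC-seq marks DNA that a transposase can reach. It was performed on cultures from the subependymal zone (SEZ), the adult neurogenic niche along the lateral ventricle, of mice labelled 10 weeks old. All 6 libraries carried the CRISPR-Cas9 deletion of Srr2, an enhancer of the stem cell factor Sox2, and are called Srr2 del/del below. No wild-type library was analysed here, so the deletion itself was not compared. Proliferating cultures (PROLIF, replicates 1, 2 and 4) were taken at 2 days in vitro (DIV) per the sample labels, while the series description says neurospheres at 3 DIV. The treatment protocol in the labels gives proliferating cells EGF and FGF, and the study's methods use PROLIF for cells plated on Matrigel with FGF for 2 days, so the medium and format of these libraries are not certain. Differentiating cultures (DIFF, replicates 1, 2 and 4) spent 2 days on Matrigel with FGF and then 1 day without mitogens in medium with fetal bovine serum. The labels name the sample numbers but not the animals or founder lines behind them, and they call the material RNA although genomic DNA was sequenced.

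Newborn neurons rebuild their cytoskeleton and their RNA processing. Tubulin isotypes and microtubule-binding proteins shape neurites, Hu and Rbfox proteins bind neuronal transcripts, and reelin is secreted to position migrating cells. In the adult SEZ, Dcx and Tubb3 mark neuroblasts, while Rbfox3 (the NeuN antigen) and Map2 mark later neurons. Promoters that lie in CpG islands are often open in cells that do not yet make the transcript, and many neuronal genes carry an RE1 element, the binding sequence of the repressor REST.

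The lists held 82741, 66643 and 60006 peaks in PROLIF 1, 2 and 4, and 71308, 70728 and 88039 in DIFF 1, 2 and 4. As a stand-in for depth, the background pileup of PROLIF 1, 2 and 4 came to 2.97, 2.94 and 2.85 reads, and that of DIFF 1, 2 and 4 to 3.63, 2.96 and 6.01. DIFF 4 was therefore the deepest. A list contains only what the caller passed, so a missing peak is signal under its threshold and not closed chromatin. Fewer cells of a type and less signal per cell cannot be told apart in these bulk libraries. Promoter peaks of the 8 neural stem and progenitor markers were present in all 6 libraries, with Sox2 between percentiles 79.1 and 91.7. Of 6 microglial, 5 endothelial and 5 oligodendrocyte markers, 2, 1 and 2 showed a promoter peak in every library and 3, 3 and 2 showed none, among the latter Cx3cr1, Ptprc, Itgam, Cldn5, Cdh5, Tek, Mag and Sox10. The part of other cells in the results below was not tested.

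A choice of the sequences behind the contrasts is given first, read from GRCm38.p6. The first set is the DNA just upstream of 4 RefSeq gene starts, shown because the genes differ in whether a peak sat there. Each line runs 5′ to 3′ on the gene's strand, stops before the first annotated start in the window, and has CpG in capitals. The Map2 and Elavl4 windows carried a peak in every library, and the Dcx and Rbfox3 windows in none. The RefSeq promoter table matched 7 of the 8 genes, all but Stmn2.
Map2, chr1:66175079-66175272, plus strand: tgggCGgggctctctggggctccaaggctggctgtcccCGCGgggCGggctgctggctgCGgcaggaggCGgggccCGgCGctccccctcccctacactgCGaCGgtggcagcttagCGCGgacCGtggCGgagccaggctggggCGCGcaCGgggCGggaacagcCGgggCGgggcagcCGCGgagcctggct
Elavl4, chr4:110351912-110352161, minus strand: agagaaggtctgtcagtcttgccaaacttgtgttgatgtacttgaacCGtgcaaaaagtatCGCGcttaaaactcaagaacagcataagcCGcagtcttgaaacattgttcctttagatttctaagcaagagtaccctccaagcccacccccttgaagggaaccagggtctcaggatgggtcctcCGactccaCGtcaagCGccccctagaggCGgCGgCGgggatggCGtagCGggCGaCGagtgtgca
Dcx, chrX:143933312-143933469, minus strand: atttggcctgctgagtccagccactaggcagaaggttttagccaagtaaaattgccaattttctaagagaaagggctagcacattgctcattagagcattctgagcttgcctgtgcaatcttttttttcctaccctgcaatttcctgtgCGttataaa
Rbfox3, chr11:118761042-118761291, minus strand: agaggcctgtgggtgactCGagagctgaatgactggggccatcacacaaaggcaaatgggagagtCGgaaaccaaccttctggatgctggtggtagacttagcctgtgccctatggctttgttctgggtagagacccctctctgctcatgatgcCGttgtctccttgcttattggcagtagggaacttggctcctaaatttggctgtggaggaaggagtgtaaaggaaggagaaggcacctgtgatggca
The count of CpG was 22 in the 194 bases of Map2, 14 in the 250 of Elavl4, 1 in the 158 of Dcx and 3 in the 250 of Rbfox3.

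The second set is the 201 bases around the summit of some of the regions that differed between the states and of those that held an RE1 match. Dcx r5 was added as a region of Dcx that stayed level. Regions with peaks in PROLIF libraries only (Rbfox3 r9, Rbfox3 r10 and Map2 r2) are not printed. Also left out are some with peaks in DIFF libraries only and some that changed in rank, such as Map2 r4 and Map2 r20. All lines are on the plus strand. Capitals mark every match, on either strand, to TGACTCA (AP-1), CAGATG or CAGCTG (E-boxes), TTGGCA (NFI), ACAAAG or ACAATG (SOX), or to the RE1 consensus. The match in Stmn2 r2 that begins TTCAGC, and the long runs in Rbfox3 r6 and Rbfox3 r7, are the RE1 matches.
Stmn2 r2, chr3:8508108-8508308, upstream of the gene: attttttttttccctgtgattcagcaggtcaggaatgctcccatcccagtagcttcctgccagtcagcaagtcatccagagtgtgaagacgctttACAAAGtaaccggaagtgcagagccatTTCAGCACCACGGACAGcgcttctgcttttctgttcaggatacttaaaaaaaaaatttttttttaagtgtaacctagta
Rbfox3 r6, chr11:118584938-118585138, intron: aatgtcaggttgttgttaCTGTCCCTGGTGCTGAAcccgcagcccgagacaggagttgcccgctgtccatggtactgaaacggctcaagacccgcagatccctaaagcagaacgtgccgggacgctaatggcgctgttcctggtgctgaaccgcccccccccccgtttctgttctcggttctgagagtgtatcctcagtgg
Rbfox3 r7, chr11:118603190-118603390, intron: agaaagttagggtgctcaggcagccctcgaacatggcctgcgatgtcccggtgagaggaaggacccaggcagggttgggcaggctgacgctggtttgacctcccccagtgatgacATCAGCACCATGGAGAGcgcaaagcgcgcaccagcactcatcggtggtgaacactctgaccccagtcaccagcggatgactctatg
Reln r6, chr5:22100281-22100481, intron: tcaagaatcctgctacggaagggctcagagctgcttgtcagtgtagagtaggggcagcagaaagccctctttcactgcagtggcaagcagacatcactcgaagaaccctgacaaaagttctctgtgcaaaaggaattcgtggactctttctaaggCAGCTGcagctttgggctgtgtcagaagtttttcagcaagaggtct
Reln r10, chr5:22247824-22248024, intron: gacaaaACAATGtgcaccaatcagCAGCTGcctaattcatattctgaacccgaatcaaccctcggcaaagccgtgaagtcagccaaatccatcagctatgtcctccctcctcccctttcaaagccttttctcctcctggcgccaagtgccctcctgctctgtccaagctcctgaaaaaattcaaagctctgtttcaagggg
Reln r11, chr5:22257954-22258154, intron: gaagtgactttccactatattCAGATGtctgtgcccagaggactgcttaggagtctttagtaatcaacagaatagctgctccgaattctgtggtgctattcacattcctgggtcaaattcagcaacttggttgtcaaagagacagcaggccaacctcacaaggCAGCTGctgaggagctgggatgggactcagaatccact
Dcx r1, chrX:143881978-143882178, intron: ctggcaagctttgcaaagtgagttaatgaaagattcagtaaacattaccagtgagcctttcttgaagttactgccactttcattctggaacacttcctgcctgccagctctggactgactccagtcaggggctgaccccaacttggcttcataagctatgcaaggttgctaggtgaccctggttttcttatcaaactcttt
Dcx r5, chrX:143906765-143906965, intron: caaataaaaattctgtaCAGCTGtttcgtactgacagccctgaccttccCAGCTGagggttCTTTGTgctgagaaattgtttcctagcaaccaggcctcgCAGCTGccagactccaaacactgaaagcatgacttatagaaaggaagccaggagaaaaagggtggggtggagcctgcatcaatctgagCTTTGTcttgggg
Map2 r12, chr1:66228336-66228536, intron: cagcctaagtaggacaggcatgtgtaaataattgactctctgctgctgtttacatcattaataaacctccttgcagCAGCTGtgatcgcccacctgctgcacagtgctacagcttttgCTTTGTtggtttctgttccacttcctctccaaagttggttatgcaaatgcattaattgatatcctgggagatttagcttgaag
Map2 r18, chr1:66309251-66309451, intron: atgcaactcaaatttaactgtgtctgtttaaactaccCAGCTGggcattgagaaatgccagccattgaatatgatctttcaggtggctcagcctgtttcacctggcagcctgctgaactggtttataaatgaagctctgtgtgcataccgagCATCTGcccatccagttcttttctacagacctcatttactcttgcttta

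Peaks at annotated start sites fell into 3 kinds among the 8 genes. Map2 and Elavl4 had a first promoter among the strongest peaks of every list, Tubb3, Elavl3 and Reln had a promoter of middling rank, and Rbfox3, Stmn2 and Dcx had a weak, partial or missing one. Within 3 kb of any start, 5 of the 8 genes had a peak in all 6 libraries, against 64.4% of 21938 protein-coding genes. The start sites of a gene lying within 500 bp of each other were joined into clusters, numbered s1 onward in the direction of transcription. Of 39 clusters of the 8 genes, 7 were occupied (a peak within 500 bp) in all 6 libraries, 26 in none and 6 in 1 to 5. In the 6 genes with several clusters, 7 of 37 (18.9%) were occupied in all 6 libraries and 25 (67.6%) in none. Over the 43770 clusters of the 13162 protein-coding genes with several, the shares were 27.1% and 65.5%. Strength is given as the percentile of a peak by −log10 p within its own list, where 100 is the strongest.

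Among the cytoskeletal genes, Map2, which encodes the microtubule-associated protein of dendrites, had 4 of its 10 start clusters occupied in all 6 libraries. Of all protein-coding genes, 1.52% had 3 or more such clusters, a share that also counts genes with too few clusters to reach 3. Over the protein-coding genes with several clusters, 27.1% of clusters were occupied in all 6 libraries. The first promoter, Map2 s1 (region r4, chr1:66174863-66175656), lay at percentiles 98.8, 96.6 and 96.9 in PROLIF and 94.1, 94.5 and 95.3 in DIFF. The groups did not overlap there. An internal promoter 212 kb downstream, Map2 s6 (r30, chr1:66386540-66387424), was as strong, between 95.7 and 98.1, with overlapping groups. Map2 s3, 146 kb into the gene (r20, chr1:66321617-66322285), had a peak in every library, and Map2 s2, 76.4 kb in (r14, chr1:66251804-66252297), was the weakest of the 4, at 38.7, 19.8 and 14.5 in PROLIF and 37.7, 53.7 and 60.6 in DIFF. The Map2 s2 starts have support level 5, the weakest of the annotation. The remaining 6 Map2 clusters had no peak in any library.

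Tubb3, the β-tubulin isotype of neurons, has 1 cluster, which lies in region r3 (chr8:123411211-123411722). The peak there was at percentiles 60.1 and 42.2 in PROLIF 1 and 2 and 64.7, 62.7 and 75.6 in DIFF 1, 2 and 4. PROLIF 4 had none at the start and had a peak 926 bp upstream of it (r2), so Tubb3 counted as occupied in all 6 libraries within 3 kb. Dcx, which stabilises microtubules in migrating neuroblasts, stood at the other end. Its single start cluster had no peak in any of the 6 libraries, and the nearest region, Dcx r5, began 25790 bp inside the gene. Among protein-coding genes, 25.4% had no peak within 3 kb of a start in any library.

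Stmn2 encodes a stathmin that destabilises microtubules in growth cones. At its first start, region r3 (chr3:8509262-8509595) had a peak in PROLIF 1 at percentile 22.9 and in PROLIF 2 at 6.35, and none in PROLIF 4 or in any DIFF library. The reverse was seen 910 bp upstream of the start, where Stmn2 r2 (chr3:8508145-8508450) had a peak in DIFF 1, 2 and 4 at percentiles 41.4, 26.4 and 46.8 and in no PROLIF library. The peaks of r2 rested on 20, 16 and 29 reads at the summit, and those of r3 on 15 and 12. Both regions were therefore small, and the contrast between them is one of peaks called or not called.

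Both Hu genes encode RNA-binding proteins that stabilise neuronal transcripts, and their promoters differed in rank. The first start of Elavl4 (HuD; r10, chr4:110351031-110352308) was at 94.2, 94.8 and 91.4 in PROLIF and at 92.8, 90.2 and 90.3 in DIFF. That of Elavl3 (HuC; r4, chr9:22051729-22052220) was at 37.3, 50.9 and 28.1 in PROLIF and at 48.9, 52.8 and 70.5 in DIFF, with overlapping groups. Elavl4 s6, an internal cluster 65020 bp downstream, lay 327 bp from a strong region, r3 (chr4:110285153-110286289). That region was present in all 6 libraries between percentiles 83.3 and 90.3. Within 500 bp of s6 itself, a peak was found in 4 libraries. It was at 90.3 and 86.9 in PROLIF 1 and 4 and at 24.7 and 86.0 in DIFF 2 and 4, with none in PROLIF 2 or DIFF 1. The other internal clusters of Elavl4 were weak or empty, since s2 had a peak in DIFF 4 alone, s3 in 3 libraries, and s4, s5, s7 and s8 in none.

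Rbfox3, a splicing regulator, has 7 clusters and had a peak at s2 alone, 2.0 kb after the first start (r22, chr11:118908588-118909736). The peak within 500 bp of it was at percentiles 12.8 and 11.0 in PROLIF 1 and 2 and at 43.5, 21.8 and 33.3 in DIFF 1, 2 and 4, with none in PROLIF 4. Over the whole of r22, PROLIF 2 had a stronger peak at 22.4, just above the 21.8 of DIFF 2, so the states overlapped there. The RefSeq start of Rbfox3 is s5, 151 kb into the gene, and neither it nor the other 5 clusters had a peak. Reln, the secreted glycoprotein, had its peak at the first start (r16, chr5:22343693-22345231) at 48.5, 52.6 and 35.4 in PROLIF and 67.5, 48.3 and 67.2 in DIFF, and the groups overlapped. The 7 later Reln clusters had none.

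**Figure D1:**
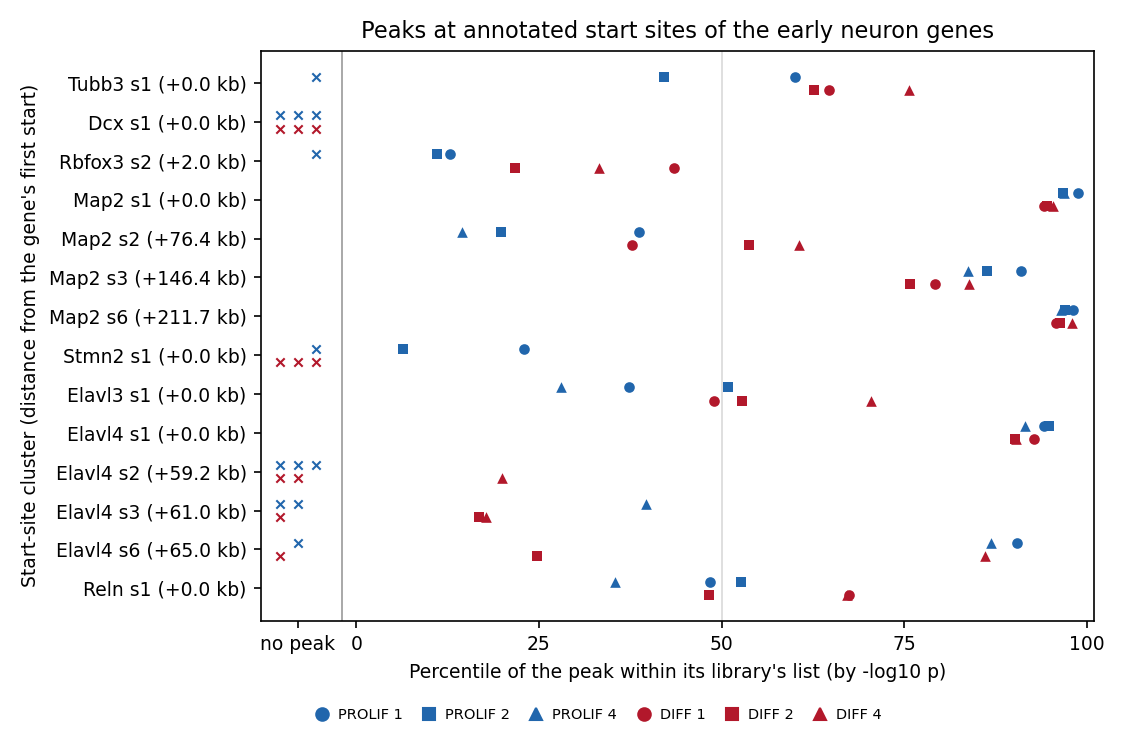
Peaks at annotated start-site clusters, with the within-list percentile by −log10 p on the horizontal axis and a row for each cluster that had a peak in any library, plus Dcx s1. Blue symbols are PROLIF and red are DIFF, symbol shape is the replicate, and crosses on the left are libraries with no peak. Map2 s1, Map2 s6 and Elavl4 s1 sit above percentile 90 in all 6 libraries, and Dcx s1 has only crosses.

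The occupied and unoccupied promoters also differed in base composition. In the 300-base RefSeq windows, the observed-to-expected CpG ratio was 0.219 for Dcx and 0.205 for the Rbfox3 s5 start, at percentiles 23.6 and 22.1 of 16522 protein-coding promoters. It was 0.765 for Tubb3, 0.827 for Map2, 0.922 for Elavl3, 0.944 for Elavl4 and 1.01 for Reln, at percentiles 66.5 to 92.0. The same order ran through all genes, put in 5 equal groups by CpG ratio from lowest to highest. A peak over the 300-base window itself was present in all 6 libraries for 4.00%, 18.5%, 68.8%, 89.0% and 94.4%. Counting a peak within 3 kb of any annotated start of the gene, the shares were 18.0%, 41.4%, 81.3%, 94.1% and 97.7%. Dcx fell in the second of these groups. There 70.2% had no peak over the window in any library, and 40.5% had none within 3 kb of any start. The occupied Rbfox3 cluster s2 was CpG-rich by count, with 27 CpG in the 201 bases around the summit of r22.

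Per 10000 peaks of its list, each DIFF library had more peaks in the 8 windows than any PROLIF library. The 8 windows had 69, 56 and 49 peaks in PROLIF 1, 2 and 4 and 75, 64 and 82 in DIFF 1, 2 and 4, a mean of 58.0 ± 10.1 (SD, n = 3) against 73.7 ± 9.07 (SD, n = 3) with overlapping groups (exact permutation test, two-sided p = 0.2). In all 3 same-numbered pairs DIFF had more, by 6, 8 and 33 peaks, and the exact paired sign-flip test gives p = 0.25, its smallest possible value. Per 10000 peaks of the list the values were 8.36, 8.43 and 8.20 in PROLIF and 10.5, 9.07 and 9.35 in DIFF. The DIFF libraries all lay above the PROLIF libraries, which gives p = 0.1 in the two-sided exact permutation test, the smallest p that 3 against 3 allows. Covered length was 24.8 ± 5.47 kb (SD, n = 3) in PROLIF and 27.6 ± 3.34 kb (SD, n = 3) in DIFF, which overlapped (exact permutation test, two-sided p = 0.4). In raw counts by gene, the groups were apart for Map2 and Reln. Map2 had 22, 22 and 19 peaks in PROLIF against 26, 24 and 29 in DIFF, and Reln had 8, 6 and 7 against 10, 11 and 11. The groups overlapped for the other 6 genes. For Map2 and Reln the two-sided exact permutation test gave p = 0.1 each, the smallest possible. These counts per gene and their tests were not scaled to list length. Relative to list length the Map2 groups overlapped. The 29 of 87728 peaks in DIFF 4 are a slightly smaller share than the 22 of 66456 in PROLIF 2. The Reln groups stayed apart on that scale. The share of all genes with groups apart was not computed.

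Of the 113 regions, 28 (24.8%) were present in all 6 libraries, and 31 (27.4%) in a single one, 12 of these in DIFF 4 alone. Over all 119719 regions, 33.5% were in all 6 libraries and 29.6% in a single one. Of those 35449 single-library regions, 10697 were in DIFF 4 alone. Peaks were found in more DIFF than PROLIF libraries for 54 regions (47.8%) and in more PROLIF than DIFF libraries for 24 (21.2%), against 34.8% and 25.1% over all regions. A region present in all 3 libraries of one state and in none of the other was called DIFF-only or PROLIF-only. There were 7 DIFF-only regions (6.19%) where all regions gave 3.48%, and 3 PROLIF-only regions (2.65%) where all regions gave 1.79%. When a peak had to cover 50% of a region, the DIFF-only regions were 4 (3.54%) against 3.70% of all regions, so the higher share in the windows was lost. Among the 68 window regions over 3 kb from any start, the DIFF-only and PROLIF-only shares were 7.35% and 4.41%. Over all regions that far from a start they were 3.98% and 2.05%, and over those inside protein-coding genes 4.73% and 1.99%. Without PROLIF 1 the windows gave 12 DIFF-only regions (10.8%, against 6.41% of all regions) and without DIFF 2 they gave 11 (9.82%, against 5.29%). Without PROLIF 2 there were 7 PROLIF-only regions (6.42%, against 2.83%) and without DIFF 1 there were 5 (4.72%, against 2.23%).

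**Figure D2:**
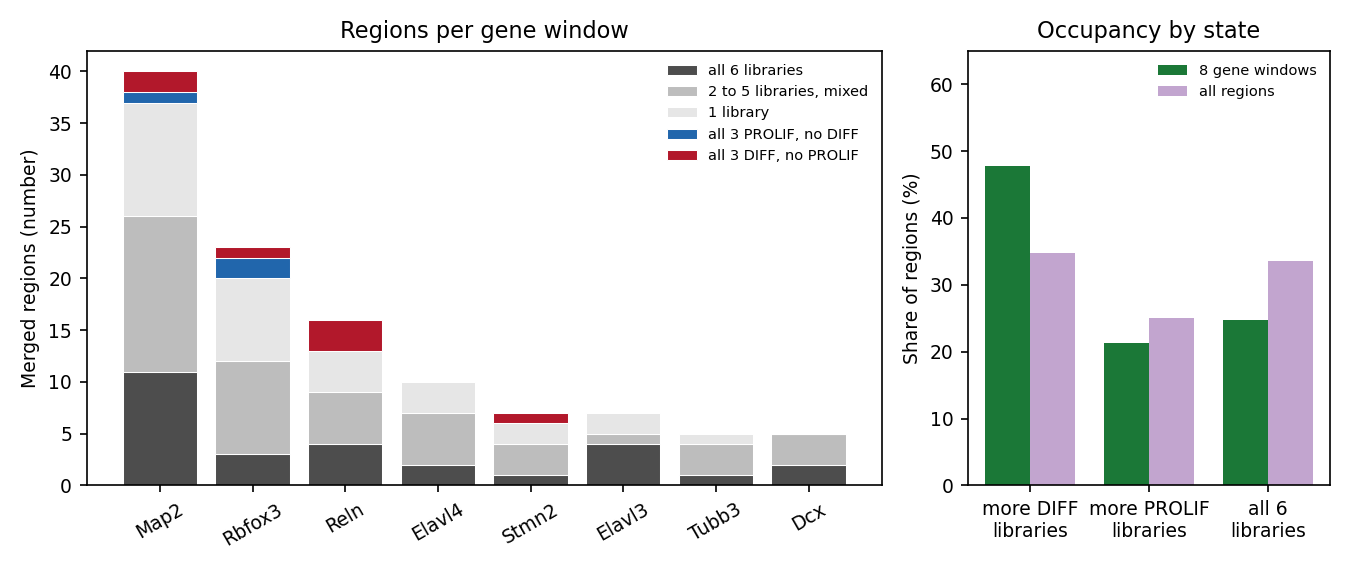
Left, number of merged regions in each gene window, stacked by the libraries that had a peak. Right, share of regions in % with a peak in more DIFF libraries, in more PROLIF libraries and in all 6, for the 8 windows and for all regions: 47.8% of the window regions had more DIFF libraries, and 34.8% of all regions. Not drawn are the regions over 3 kb from any start. There the share was 51.5% in the windows, 39.1% over all such regions and 41.6% over those inside protein-coding genes.

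Reln held 3 of the 7 DIFF-only regions. The strongest was Reln r11 (chr5:22257988-22258202), 86.6 kb into the gene in an intron, at percentiles 58.9, 46.9 and 63.8 in DIFF 1, 2 and 4 from 27, 22 and 41 summit reads. Reln r8, 191 kb in, was at 33.7, 16.9 and 40.1, and Reln r2, 411 kb in and 719 bp from a noncoding Reln start (s5), was at 2.95, 16.9 and 50.6. The low value of r2 in DIFF 1 puts it near the bottom of that list.

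The other DIFF-only regions were spread over 3 genes. Map2 r18 (chr1:66308953-66309550), in an intron 134 kb from the start, was at 50.2, 52.3 and 56.8 in DIFF 1, 2 and 4. Map2 r29, 196 kb in, was at 33.7, 57.5 and 50.6, and Rbfox3 r8, 252 kb in, at 54.9, 37.7 and 55.3. With Stmn2 r2 these make up the 7, and Tubb3, Dcx, Elavl3 and Elavl4 had none. The PROLIF-only regions were Rbfox3 r9 at 64.9, 49.4 and 23.7 and Rbfox3 r10 at 50.4, 19.8 and 37.4 in PROLIF 1, 2 and 4, 244 and 242 kb into the gene, and Map2 r2, 6179 bp upstream of the gene, at 24.7, 42.0 and 37.2. The DIFF-only Rbfox3 r8 and the PROLIF-only r9 and r10 follow each other along the gene.

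**Figure D3:**
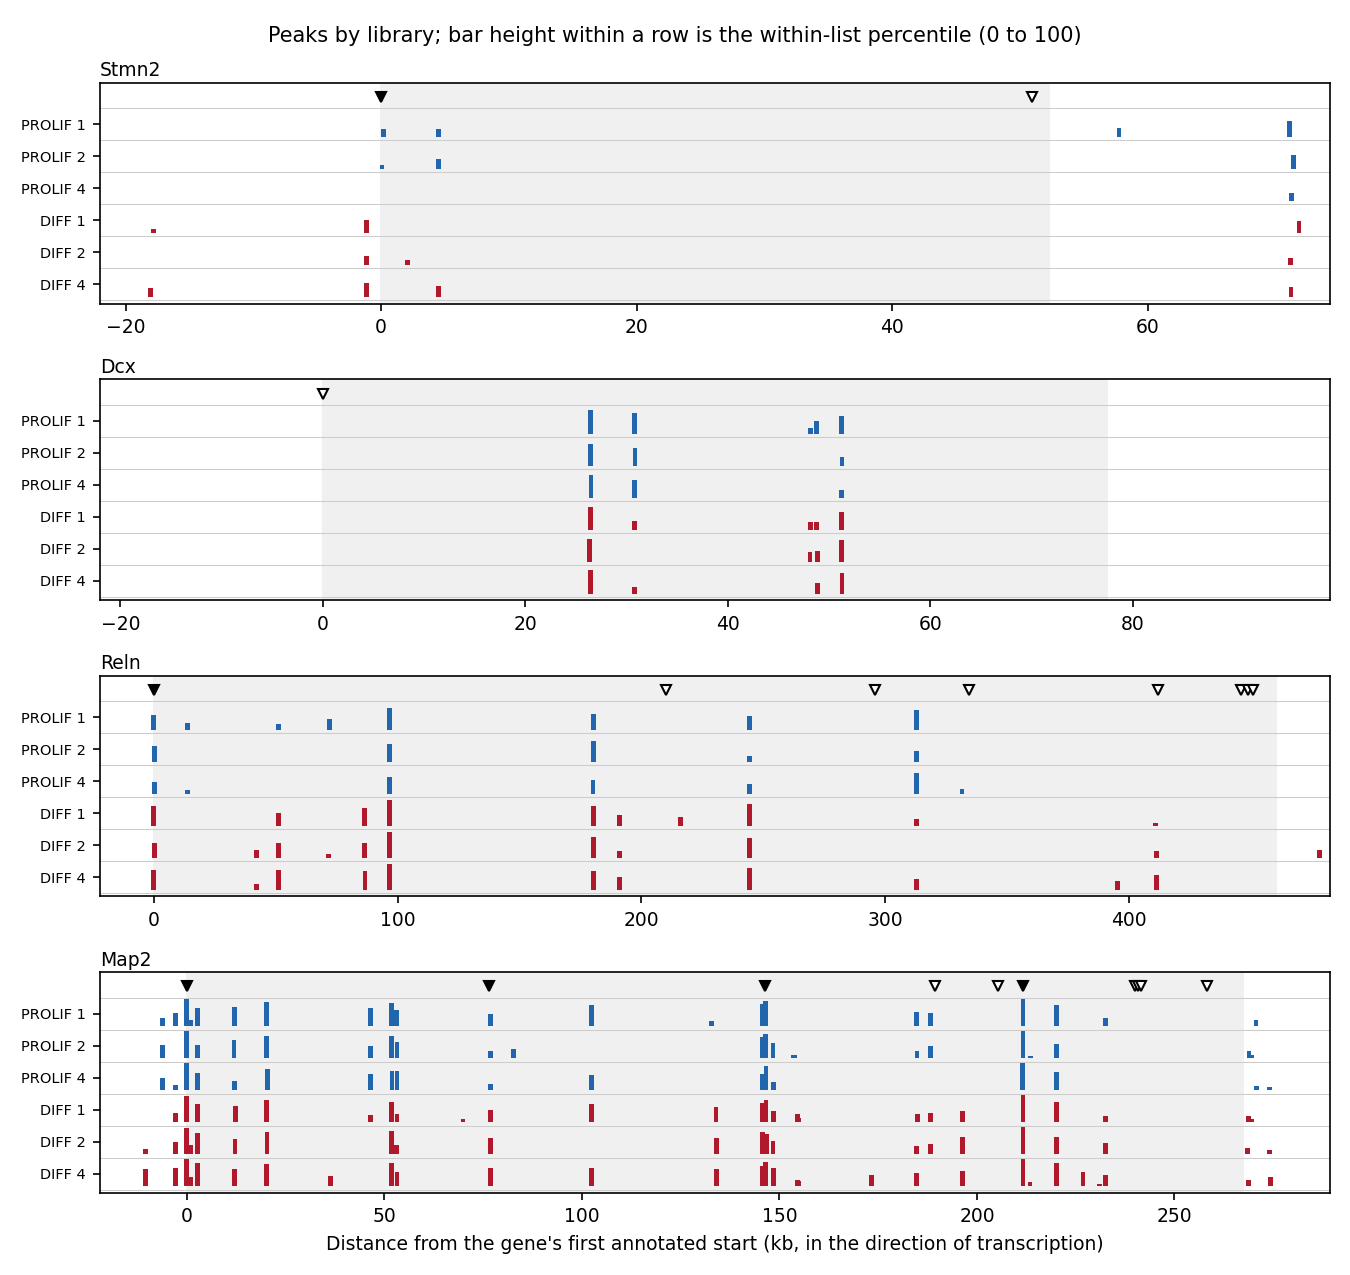
Peaks of each library along the windows of Stmn2, Dcx, Reln and Map2, against the distance in kb from the first annotated start in the direction of transcription. Grey is the gene body, bar height within a row is the within-list percentile from 0 to 100, blue is PROLIF and red is DIFF. Triangles are start-site clusters, filled where any library had a peak. At Stmn2 the 3 DIFF rows share a bar 910 bp upstream of the start that no PROLIF row has, and at Dcx no bar stands at the start.

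For the 28 regions present in every library, strength was compared as a rank. The ranks by −log10 p over the 40102 regions in all 6 libraries were turned into normal scores in each library and tested with limma, with Benjamini-Hochberg adjustment over all of them at 0.05. Scores were higher in DIFF for 5 of the 28 regions, against 9.80% of all regions tested, and lower in DIFF for 3, against 11.2%. Without DIFF 4 the first count was 3. The scores of the states did not overlap for 8 regions that were higher in DIFF and 5 that were lower, against 20.3% and 17.8% of all regions tested. The median difference of the 28 was 0.16, and that of all tested was 0.05.

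The lowest adjusted p-values among the 5 were in Reln introns. Reln r10 (chr5:22247588-22248247), 96.8 kb into the gene, was at percentiles 76.6, 61.5 and 55.0 in PROLIF and 90.1, 89.9 and 91.8 in DIFF. Its fold enrichment over background ran from 6.24 to 11.6 in PROLIF and from 13.7 to 15.1 in DIFF, so all DIFF libraries lay above all PROLIF libraries on both scales. The score rose by 1.10 ± 0.15 (SE, n = 3 and 3) with an adjusted p of 1.18e-04 (limma). Reln r6 (chr5:22100053-22100616), 244 kb in, went from 44.6, 14.3 and 31.0 to 74.5, 67.7 and 75.2, a score difference of 1.47 ± 0.29 (SE, n = 3 and 3) with limma adjusted p = 0.00204. Both kept their call in all 10 alternatives. Reln r9 between them, at 51.6, 70.9 and 43.4 in PROLIF and 66.9, 71.8 and 65.8 in DIFF, did not pass (limma adjusted p = 0.40). Reln r5 was in 5 libraries, with 69.9, 33.7 and 71.1 in PROLIF, 18.9 and 34.6 in DIFF 1 and 4, and no peak in DIFF 2.

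Dcx r1 (chrX:143881655-143882313), in an intron 51.3 kb from the start, also rose. It lay at percentiles 57.3, 24.9 and 20.3 in PROLIF and 56.9, 72.8 and 71.5 in DIFF, so PROLIF 1 and DIFF 1 were level over the whole lists, while the scores over the shared regions did not overlap. The score differed by 1.06 ± 0.30 (SE, n = 3 and 3) with limma adjusted p = 0.0184. The call was lost without PROLIF 2, PROLIF 4, DIFF 2 or DIFF 4 (adjusted p 0.0602 to 0.0948). The strongest region of the window, Dcx r5 (chrX:143906392-143907260), stayed between 76.1 and 82.8 in all 6 libraries, a difference of -0.09 ± 0.15 (SE, n = 3 and 3). Dcx r4, 30.9 kb from the start, was at 71.6, 57.3 and 58.6 in PROLIF and at 24.3 and 15.4 in DIFF 1 and 4, with no peak in DIFF 2.

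The other 2 rises belonged to neighbouring genes that share the windows. Rbfox3 r1 covers the start of Engase and Elavl3 r1 that of Ccdc151, with score differences of 0.51 ± 0.13 and 0.49 ± 0.11 (SE, n = 3 and 3) and limma adjusted p of 0.0102 and 0.00387. The call of Rbfox3 r1 was lost without DIFF 4 (adjusted p = 0.0702), and that of Elavl3 r1 when fold enrichment replaced −log10 p (adjusted p = 0.158). In all, 6 of the 113 regions lay within 3 kb of another protein-coding gene's start and of none of their own, among them Tubb3 r1 near Mc1r and Tubb3 r5 near Def8. With the replicate numbers as a block, Rbfox3 r21, an intron region 36.0 kb in, and Map2 r6, 2.64 kb in, passed as well (adjusted p = 0.0282 and 0.0482, against 0.0571 and 0.0989 without it).

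Among the 28 shared regions, all 3 with lower scores in DIFF were in Map2. The first promoter r4 fell by 0.47 ± 0.11 (SE, n = 3 and 3; limma adjusted p = 0.00831) and the internal promoter r20 by 0.56 ± 0.15 (SE, n = 3 and 3; limma adjusted p = 0.0159). At r20 the percentiles were 91.0, 86.3 and 83.7 in PROLIF and 79.2, 69.0 and 83.8 in DIFF, level for the replicates numbered 4. The intronic r12 (chr1:66228089-66228650), 53.1 kb in, went from 54.5, 54.8 and 64.3 to 22.3, 28.5 and 45.8, and its score fell by 1.02 ± 0.32 (SE, n = 3 and 3; limma adjusted p = 0.0318). None of the 3 passed when ranks came from fold enrichment (adjusted p 0.129 to 0.152) or from quantile-normalised log2 fold enrichment (0.112 to 0.125). At r4 the fold enrichment was 13.9, 11.0 and 11.6 in PROLIF and 9.47, 10.8 and 9.34 in DIFF, and the background used by the caller there was high, 9.61 to 23.9 reads. The r12 call was also lost without any single library other than PROLIF 1 (adjusted p 0.0602 to 0.107), and the r20 call without PROLIF 1 or DIFF 2 (0.0570 and 0.0781). The second strong promoter, r30, differed by -0.13 ± 0.11 (SE, n = 3 and 3; limma adjusted p = 0.42), and r14 at s2, where the percentiles were higher in DIFF 2 and DIFF 4 than in any PROLIF library, by 0.84 ± 0.34 (SE, n = 3 and 3) with limma adjusted p = 0.0888.

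**Figure D4:**
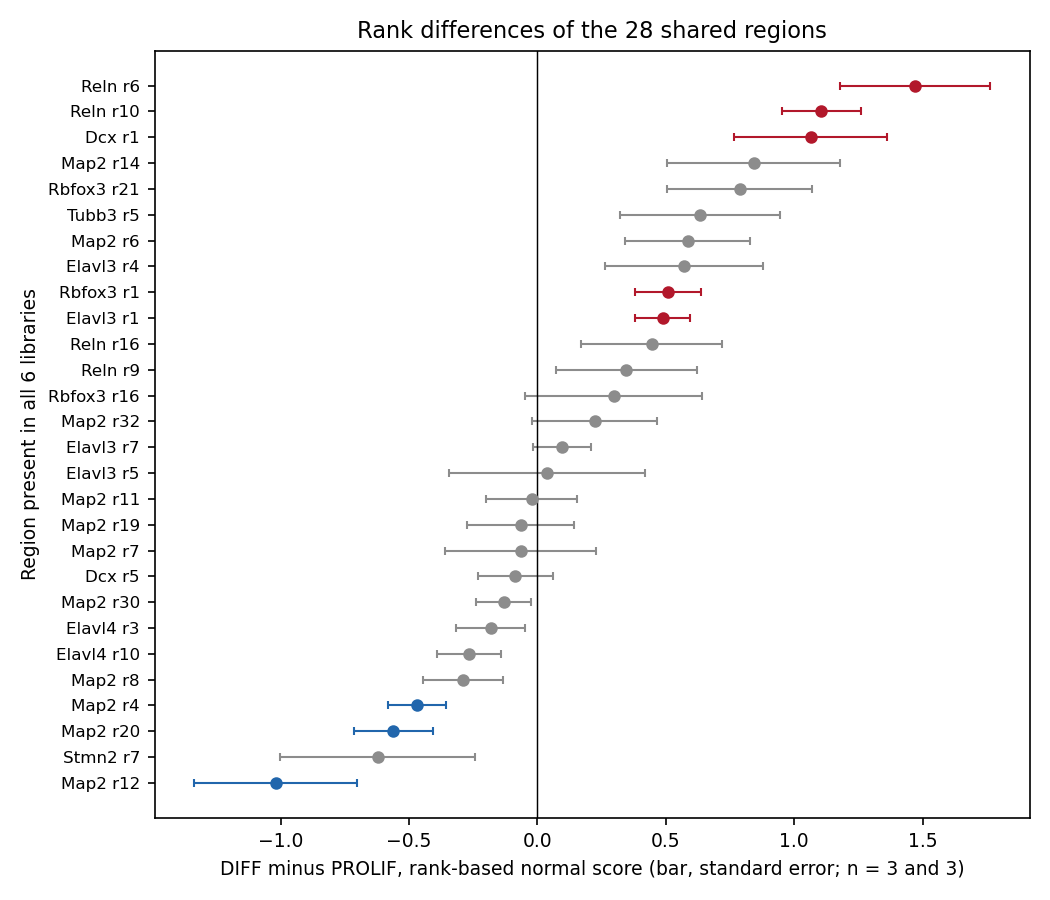
Difference in rank-based normal score, DIFF minus PROLIF, for the 28 regions of the 8 windows present in all 6 libraries. Bars are standard errors from limma with 3 libraries per state, red is higher and blue is lower in DIFF at an adjusted p under 0.05, and grey did not pass. Reln r6 and Reln r10 stand at the top with 1.47 and 1.10, and the 3 blue regions are all Map2.

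Peaks far from every annotated start, present in at least 5 libraries, were found for 6 of the 8 genes, and they ranged from strong at Dcx, Map2 and Reln to weak at Elavl3. Taking for each gene the region of this kind, over 3 kb from any start, with the highest lowest percentile gave Dcx r5, Map2 r8 (74.7 to 87.1), Reln r10, Rbfox3 r21 (20.3 to 67.7), Stmn2 r7 (16.9 to 54.9) and Elavl3 r2 (12.8 to 40.1, absent from DIFF 2). Map2 r8 is 20.2 kb into the gene and differed by -0.29 ± 0.16 (SE, n = 3 and 3; limma adjusted p = 0.20). Stmn2 r7, 19982 bp past the last annotated start and outside the gene, differed by -0.62 ± 0.38 (SE, n = 3 and 3; limma adjusted p = 0.26). Tubb3 and Elavl4 had no such region. Of the 113 regions, 68 were over 3 kb from any annotated start and 74 lay in introns.

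Searching 100 bp on each side of the summit, 3 of the 113 regions (2.65%) held an RE1 match, against 0.251% of all regions, and within 50 bp 2 did (1.77%, against 0.199%). The 3 are those printed above. Stmn2 r2 had it at chr3:8508230-8508246 and was DIFF-only. Rbfox3 r6 (chr11:118584956-118584972) had peaks in DIFF 2 and DIFF 4 at percentiles 11.7 and 31.4, and Rbfox3 r7 (chr11:118603305-118603321) in DIFF 1 at 29.3. No PROLIF library had a peak at any of the 3. Over the genome, 301 regions held an RE1 match, of which 53.8% had more DIFF than PROLIF libraries and 6.31% more PROLIF than DIFF, against 34.7% and 25.1% of regions without one, and 97 of the 301 were in all 6 libraries. The windows held 10 RE1 matches in 1794912 bases, and the other 7, in Dcx, Tubb3, Elavl3, Rbfox3 and Stmn2, lay 594 to 17843 bp from the nearest region. A match describes letters and does not show binding.

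Short motifs were counted in the same windows. The E-box CAGCTG was found near the summit of 32 of the 113 regions (28.3%) against 19.6% of all regions, in 7 of 16 Reln regions, 9 of 23 Rbfox3 regions and none of the 10 Elavl4 regions. Within 50 bp of the summit the difference from all regions was gone, with 13 regions (11.5%) against 11.97%, and 1 of the 23 Rbfox3 regions. Dcx r5 held 3 copies within 201 bases. The other E-box, CAGATG, was in 22 regions (19.5%, against 17.3%) and in 4 of the 7 DIFF-only regions, where 12.4% of all DIFF-only regions had it. Within 50 bp it was in 10 regions (8.85%, against 9.78%) and in 1 of the 7 DIFF-only regions, against 6.71% of all DIFF-only regions, so both E-box counts depend on the width searched. The NFI motif TTGGCA was in 13 regions (11.5%, against 18.3%) and in 1 of the 7 DIFF-only regions, against 32.8% of all DIFF-only regions. AP-1 was in 5 regions (4.42%, against 5.76%) and in none of the 3 PROLIF-only regions, against 27.8% of all PROLIF-only regions. ACAAAG was in 25 regions (22.1%, against 20.2%) and ACAATG in 18 (15.9%, against 11.6%). Within 50 bp ACAAAG was in 16 regions (14.2%, against 11.3%) and ACAATG in 7 (6.19%, against 6.23%). The ACAATG difference was therefore gone at that width.

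Promoters of other neuronal genes were counted in the same way. Of 36 listed genes, 33 (91.7%) had a peak within 3 kb of a start in all 6 libraries, namely 16 of 18 cytoskeletal genes, all 6 RNA-binding protein genes, all 6 genes of the reelin pathway and 5 of 6 surface and synapse genes. The share was 64.4% of all protein-coding genes, and 94.1% and 97.7% in the fourth and highest groups by CpG ratio. The CpG ratio of the listed genes was not examined. Elavl2, the third neuronal Hu gene, lay between percentiles 98.9 and 99.5, above both Elavl4 and Elavl3. For the reelin pathway, the receptor gene Vldlr lay between 51.7 and 72.7, the second receptor gene Lrp8 between 76.5 and 91.0 and the adaptor gene Dab1 between 70.2 and 79.9, so all 3 had lowest values above the 35.4 of the Reln promoter. Stmn4, a paralog of Stmn2, was the only one with a peak in all PROLIF libraries, at 49.4, 27.6 and 20.3, and in no DIFF library. That class held 0.228% of all protein-coding genes, and the reverse class 0.374%.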

How the data were processed

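ATAC-seq peak lists of 3 PROLIF and 3 DIFF cultures were used, grouped by the state and replicate number in the labels. Per the methods and labels, reads went through Cutadapt and Trimmomatic, Bowtie2 placed them on GRCm38 (mm10), and the authors ran MACS2 on each library by itself; versions are not given in the sources used here. Each deposited list gives a score, a fold enrichment, a ratio to the library's local background, and −log10 p and q values. The deposited score was not used. The fold enrichment and −log10 p deposited by the authors gave summit pileups and backgrounds, which came out whole within 0.05 reads for at least 99.99% of peaks.

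The 8 genes and the lists of other genes, markers and motifs were chosen with earlier results of these data known. Regions are peaks of the 6 lists merged on 1 bp of overlap, annotated with GENCODE M21. Described one by one were start-site regions, regions of 1 state only, regions past the limma threshold and, for each gene, the distal region in at least 5 libraries with the highest lowest percentile. Other neuronal genes were to be named for a promoter peak in all libraries of 1 state only or in no library; Elavl2, Vldlr, Lrp8 and Dab1 were named after their values were seen. Normal scores were tested with limma 3.58.1 (R 4.3.3) with a trended prior; counts per library with exact permutation tests (scipy 1.17.1). On simulated shifts over 40102 regions, limma recovered 86% at a shift of 2 scores and 43% at 1, with 3 false calls of 132. The simulation shifted only a small part of the regions and drew independent noise. The real fit called 9.80% of regions higher and 11.2% lower in DIFF, so these rates may not hold for it. Same-numbered PROLIF and DIFF libraries deviated together over regions (r = 0.14, 0.15 and 0.13), and the numbers were taken to pair the cultures. The other correlations (-0.11 to -0.03) add no support, since deviations from a state mean cancel within the state. The part of a shared batch was not tested. The main limma fit and the unpaired permutation tests did not use the pairing. Separate animals are not named, so p-values measure the spread between these samples.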

Additional observations from a re-analysis of the deposited data

How the results depend on the processing

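Of 280 refits of the 28 shared regions under 10 alternatives, 258 left the call as it was, 20 lost it, 2 gained it and none of the called regions changed sign. Regions higher in DIFF numbered 5 with −log10 p ranks and 3 to 5 over the fits that leave out one library. Those lower in DIFF numbered 3 and 2 to 3, but not always the same regions. Without DIFF 2 they were Map2 r4, Dcx r4 and Reln r5. Dcx r4 differed by -1.67 (limma adjusted p = 0.00482) and Reln r5 by -1.27 (limma adjusted p = 0.0499). These 2 regions have no peak in DIFF 2, so they are not among the 28 shared regions. Those lower in DIFF dropped to 0 with ranks by fold enrichment and 0 with quantile-normalised log2 fold enrichment (3 and 4 at an unadjusted p under 0.05, limma), and the cause was not tested. With the replicate block there were 7 and 3. The paired sign-flip test of peaks in the windows, with a mean difference of 15.7 peaks, can give no p under 0.25.

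Requiring a peak to cover 50% of a region left 15 regions in all 6 libraries in place of 28 and 4 DIFF-only (3.54%, against 3.70% of all regions) in place of 7, and the cause was not tested. Asking instead, as a replicate block, for a difference in 2 of 3 pairs and the opposite in none gave 20 DIFF-only (17.7%, against 11.1% of all regions) and 10 PROLIF-only regions (8.85%, against 6.30%), a looser rule by construction. Leaving out one library gave 6 to 12 DIFF-only, 3 to 7 PROLIF-only and 28 to 33 regions in all the remaining libraries. Lists cut to equal length gave 9 DIFF-only (10.2%, against 3.93%) and 3 PROLIF-only regions (3.41%, against 3.31%). The counts of genes and clusters with a start-site peak stayed within 1.5 times under every alternative run. Searching 50 bp in place of 100 bp left CAGCTG in 13 regions, CAGATG in 10, TTGGCA in 5, AP-1 in 3, ACAAAG in 16 and ACAATG in 7, as a narrower window must.

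The part of depth in the weak regions was not tested. DIFF 4 had the highest background, and the peaks at and upstream of the Stmn2 start rest on 12 to 29 reads. Of the 31 regions in a single library, 12 were in DIFF 4 alone, against 10697 of 35449 over all regions.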
